A study of Mus musculus with 29 samples.

Results

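The expression of 10 genes of platelet-derived growth factor (PDGF) signalling and of pericytes was examined in mouse hearts during heart failure (HF) and recovery. The genes were chosen by symbol, and all 10 were found among the 29,955 genes of the table: the ligand genes Pdgfa, Pdgfb, Pdgfc and Pdgfd, the receptor genes Pdgfra and Pdgfrb, and the mural cell genes Rgs4, Rgs5, Cspg4 and Abcc9. All 10 were tested, since each averaged 0.5 FPKM or more (fragment numbers divided by transcript length and scaled for library size, in a way the sources do not give), with Pdgfc just inside this limit at a mean of 0.503 FPKM. The mice were C57BL/6J males, 3 months old at the start. HF was induced over 5 weeks with drinking water that held L-NAME, which blocks nitric oxide synthase, at 0.3 mg/ml together with NaCl at 1%, and from the end of the first week with angiotensin II at 0.7 mg/kg per day from a 28 day pump. The agents were then withdrawn for recovery. Groups were HF week 3 (2 libraries) and HF week 5 (3 libraries), Recovery week 7 (2), week 9 (2), week 11 (3), week 13 (2) and week 19 (5), and Control week 19 (5), age matched to Recovery week 19, with weeks counted from the start of induction. Control week 19 hearts were collected 14 weeks later in the protocol than HF week 5 hearts, so age and HF cannot be told apart in that comparison. HF week 3 and Recovery weeks 7 to 13 were also earlier than these controls, and HF week 5 was earlier than Recovery week 19. Age thus cannot be told apart from group in any comparison but Recovery week 19 against Control week 19. The model is pharmacological, no PDGF gene was altered in it, and its agents act on blood vessels, whose walls hold the mural cells.

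PDGFs are dimeric growth factors that signal through the receptor tyrosine kinases PDGFR-alpha and PDGFR-beta. In the heart, PDGFR-alpha marks fibroblasts and their progenitors, while PDGFR-beta marks the mural cells of vessels, that is pericytes and vascular smooth muscle cells. PDGF-B released by endothelial cells recruits and holds pericytes on capillaries. NG2, the proteoglycan encoded by Cspg4, the G protein regulator RGS5 and the potassium channel subunit SUR2, encoded by Abcc9, are used as pericyte markers, although SUR2 is also a subunit of channels in cardiomyocytes.

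Libraries differed in ways that touch these genes. Myl7, the atrial myosin light chain, was at most 1.12 FPKM in Control week 19, at 1805 and 5773 FPKM in the HF week 3 libraries, at 18388, 152 and 6.16 FPKM in HF week 5 libraries 1, 2 and 3, and at most 3.56 FPKM in the recovery libraries. The sum of 5 atrial markers was 81730 FPKM in HF week 5 library 1 against 2515 and 2229 FPKM in libraries 2 and 3, and 89.6 to 349 FPKM in Control week 19. Values without library 1 are therefore given beside many of the results on HF week 5, and the part of atrial tissue in the results was not tested. HF week 3 library 1 detected 12,816 genes, and no other library fewer than 16,339. The 10 highest genes of a library held 14.6% to 18.8% of its summed FPKM in HF week 5 and in both week 19 groups, 19.8% and 37.5% in HF week 3, and 27.9% to 37.4% in Recovery weeks 7 to 13, so comparisons between these sets of libraries carry this difference. The cardiomyocyte myosin gene Myh6 was listed at 0 in every library of HF week 5 and of both week 19 groups, but at 37546 to 301793 FPKM in HF week 3 and 106008 to 316195 FPKM in Recovery weeks 7 to 13, and the sum of 10 cardiomyocyte markers was 28750 to 32370 FPKM in Control week 19, 63800 to 325900 FPKM in HF week 3 and 141100 to 363500 FPKM in Recovery weeks 7 to 13. Comparisons of HF week 3 and of Recovery weeks 7 to 13 with the controls therefore set libraries with and without Myh6 values against each other, and the part of this in the results was not tested. The actin gene Actc1 of cardiomyocytes was listed at 0 in all 5 controls, and none of the 10 genes studied was at 0 in any library. The labels do not say which of the study's separate cohorts a library came from. Relative depth spanned 0.728 to 1.39 over the 23 libraries that allowed an estimate, and absolute depth is unknown.

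In HF week 5 the genes of both receptors were higher than in Control week 19 and the ligand genes Pdgfa and Pdgfd were lower. The mural genes moved in different directions, with Cspg4 higher, Abcc9 lower and the calls for Rgs4 and Rgs5 not reached. With limma and Benjamini-Hochberg adjustment over all genes tested, 6 of the 10 genes passed an adjusted p under 0.05, 3 higher and 3 lower, and the same number passed at an unadjusted p under 0.05, as did 36.5% of all genes. Over all 12,759 genes tested 24.0% passed in this comparison, 11.6% higher and 12.4% lower (1482 and 1580 genes, or 1116 and 1869 after median centring). The median log2 fold change was -0.05 over the 10 genes and 0.04 over all genes tested. The labels name the tissue both as whole heart and as whole ventricle, while the methods name the apical portion, and in such bulk RNA fewer cells of a type and less RNA per cell cannot be told apart.

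**Figure D1:**
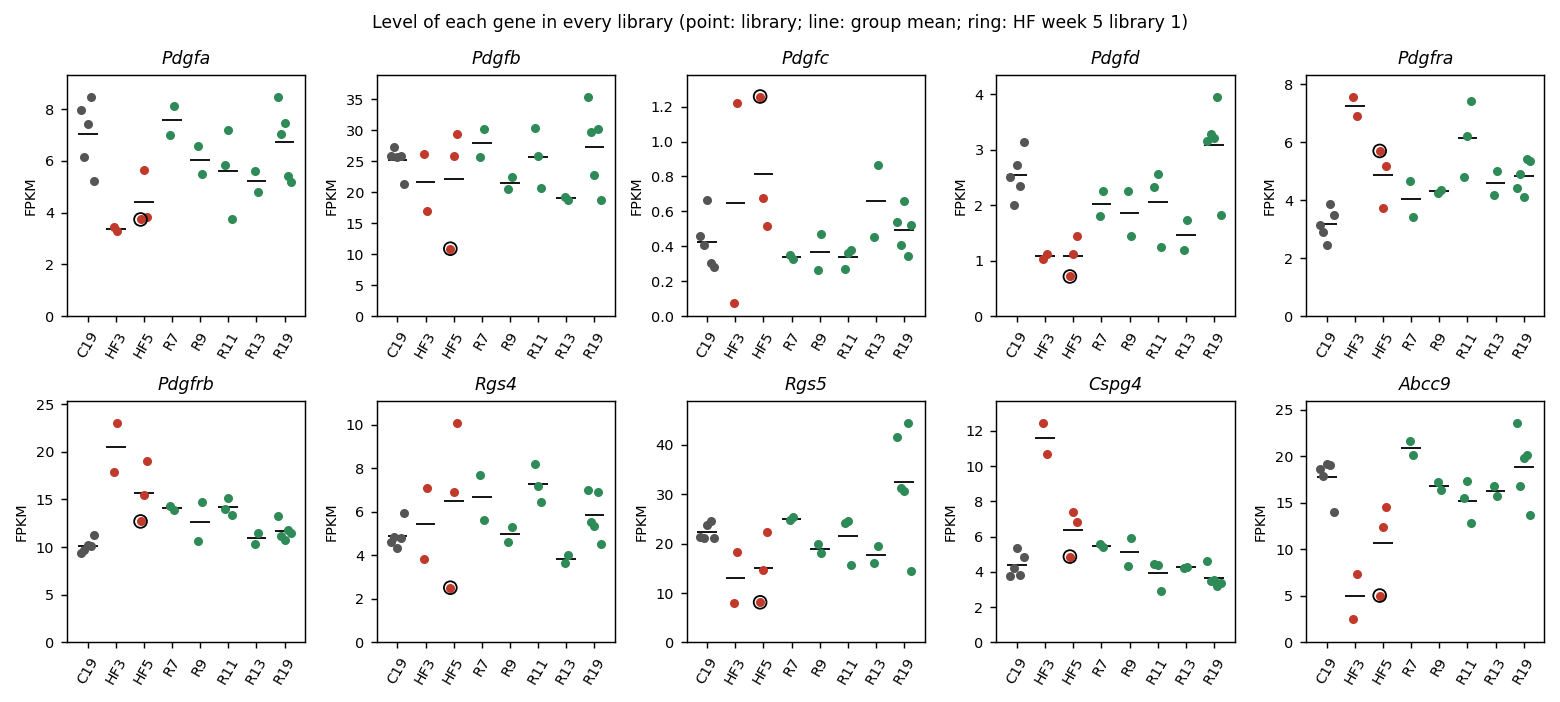
Level of each of the 10 genes in FPKM (vertical axis, linear from 0, own scale for each gene) in every library of Control week 19 (C19), HF weeks 3 and 5 (HF3, HF5) and Recovery weeks 7 to 19 (R7 to R19). Points are libraries, lines are group means and the ring marks HF week 5 library 1, which lies highest of its group for Pdgfc and Pdgfra and lowest for the 8 other genes.

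Pdgfrb, the receptor gene of mural cells, was at 9.41, 9.73, 10.2, 10.2 and 11.2 FPKM in the Control week 19 libraries and at 12.7, 15.5 and 19.01 FPKM in HF week 5 libraries 1, 2 and 3. All 3 HF libraries lay above all 5 controls, as was the case in either direction for 29.5% of all genes tested. The level rose 1.51-fold (log2 fold change 0.59, SE 0.13, adjusted p = 0.00272), and without HF week 5 library 1 the log2 fold change was 0.73 (adjusted p = 0.00197). Pdgfrb kept its call in this comparison under each of the 18 alternatives run, with adjusted p from 0.00057 to 0.0234. The Recovery week 19 values were 13.2, 11.2, 10.7, 11.8 and 11.5 FPKM. These values overlapped both those of HF week 5 and those of the controls. The level fell by 0.40 on the log2 scale from HF week 5 to Recovery week 19 (SE 0.13, adjusted p = 0.0272, or 0.0129 without HF week 5 library 1), and this call was lost without HF week 5 library 2 (adjusted p = 0.0577) or library 3 (adjusted p = 0.184), without Recovery week 19 library 2 or 3 (adjusted p = 0.0542 and 0.0585) after median centring (adjusted p = 0.0647) and when only the compared groups entered the fit (adjusted p = 0.0733).

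Pdgfra, the receptor gene of fibroblasts, was at 3.15, 2.91, 2.46, 3.88 and 3.48 FPKM in Control week 19. In HF week 5 it was at 5.70, 3.75 and 5.17 FPKM, with library 2 inside the control range. It rose 1.46-fold (log2 fold change 0.54, SE 0.16, adjusted p = 0.0178), a call that was lost without HF week 5 library 1 (log2 fold change 0.43, adjusted p = 0.128) or library 3 (adjusted p = 0.0659). In Recovery week 19 it was at 4.44, 4.89, 4.10, 5.41 and 5.36 FPKM, all above the highest control. The level in Recovery week 19 did not differ detectably from that in HF week 5, with a log2 difference of 0.00 and a 95% interval of -0.33 to 0.33. Against Control week 19 its log2 fold change was 0.55 (SE 0.14), with an unadjusted p of 0.000746 and an adjusted p of 0.732. Of all genes tested 2.88% passed the unadjusted threshold in this comparison, and 1.17% showed no overlap between the groups.

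The course of both receptors through recovery was followed in the smaller groups. Pdgfra was at 4.65 and 3.41 FPKM in Recovery week 7, 4.26 and 4.36 FPKM in week 9, 4.79, 6.22 and 7.44 FPKM in week 11, and 4.18 and 5.02 FPKM in week 13. In Recovery weeks 9, 11 and 13 every library lay above all 5 controls, and 15.2%, 9.96% and 26.8% of all genes showed no overlap with the controls in these weeks. In week 11 Pdgfra rose 1.80-fold over Control week 19 (log2 fold change 0.85, SE 0.16, adjusted p = 0.0326), where 0.149% of all genes were called, and it was the only one of the 10 genes called in Recovery weeks 7 to 13. Of all genes 0.0470%, 0.0549% and 0.0784% were called in weeks 7, 9 and 13. That call was lost without week 11 library 2 (adjusted p = 0.169) or library 3 (adjusted p = 0.391), without Control week 19 library 1, 2 or 3 (adjusted p = 0.0778, 0.0741 and 0.113), without the filter on low values (adjusted p = 0.0726), and with only the compared groups in the fit (adjusted p = 0.0568). In Recovery weeks 7, 9 and 13 the log2 fold changes were 0.30, 0.40 and 0.48, with unadjusted p of 0.113, 0.0391 and 0.0153 and adjusted p of 1, 1 and 0.359. The sum of 12 fibroblast markers was 822 to 1180 FPKM in Control week 19. It was 852 to 1048 FPKM in Recovery week 7, 1291 to 1681 FPKM in week 9, 1392 to 2722 FPKM in week 11, 1312 to 1702 FPKM in week 13 and 945 to 1768 FPKM in week 19. The sums of weeks 9, 11 and 13 thus lay above all controls, as the Pdgfra values did, while limma called 0 of the 12 markers in any of these recovery groups against Control week 19. At an unadjusted p under 0.05, 1 was lower in week 7, and 1, 10, 4 and 2 were higher in weeks 9, 11, 13 and 19. Of all genes 3.61%, 3.60%, 8.45%, 10.4% and 2.88% passed that threshold in weeks 7, 9, 11, 13 and 19. Of 9 macrophage markers limma also called 0 in these groups, but 8 were higher at an unadjusted p under 0.05 in week 11 and 8 in week 13, 4 in week 19 and 0 in week 9, and 1 was lower in week 7. Their sum was 329 to 537 FPKM in the controls, 271 to 316 FPKM in week 7, 311 to 550 FPKM in week 9, 598 to 846 FPKM in week 11, 697 to 930 FPKM in week 13 and 404 to 856 FPKM in week 19. The part of both cell types in the Pdgfra level was not tested. Pdgfrb was at 14.3 and 13.9 FPKM in Recovery week 7, 10.6 and 14.7 FPKM in week 9, 14.0, 15.1 and 13.4 FPKM in week 11, and 10.4 and 11.5 FPKM in week 13. In weeks 7 and 11 all its values were above the controls (in week 7, 15.6% of all genes showed no overlap), with log2 fold changes of 0.46 and 0.46 (unadjusted p = 0.00498 and 0.00162, adjusted p = 1 and 0.179), while in week 13 it was 0.10 from control (unadjusted p = 0.488).

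In HF week 3, at the middle of induction, both receptor genes had their highest group means. Pdgfrb was at 17.9 and 23.0 FPKM and Pdgfra at 7.58 and 6.91 FPKM, above every control. The log2 fold changes against Control week 19 were 0.97 for Pdgfrb (adjusted p = 3.26e-05) and 1.09 for Pdgfra (adjusted p = 9.14e-05). In this comparison 50.7% of all genes tested were called, and 6 of the 10 genes: Pdgfra, Pdgfrb and Cspg4 higher, and Pdgfa, Pdgfd and Abcc9 lower. The libraries of HF week 3 and of the controls did not overlap for 45.3% of all genes. These are the 6 genes called in HF week 5, in the same directions, but the comparisons share their controls, and both HF week 3 libraries were high in atrial genes, with Myl4 at 4094 and 4206 FPKM and Sln at 1838 and 4070 FPKM, although the atrial gene Nppa was listed at 0 in both and at 81.1 to 345 FPKM in the controls. Of 12 fibroblast markers 9 were higher in HF week 3, with a sum of 3008 to 4484 FPKM against 822 to 1180 FPKM in the controls, and of 10 endothelial markers 7 were higher and 1 was lower, with a sum of 759 to 807 FPKM against 368 to 471 FPKM. The part of these cells in the receptor levels was not tested.

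The start of the Pdgfra gene is shown here because Pdgfra was the only one of the 10 genes called in Recovery weeks 7 to 13, in week 11. The sequence is the 250 bases before the start, from RefSeq and GRCm38.p6, a later build than that of the deposited values. Capitals, here and in the promoters of the other genes, mark matches on either strand to 6 motifs, given with their share of 32,851 promoters of this length. The E-box, CANNTG, was found in 66.2%. The GC box, GGGCGG, was found in 32.7%. The GATA motif, AGATAA, was in 9.99%. The AP-1 motif, TGACTCA, was in 4.46%. The FOXO motif, GTAAACA, was in 3.17%. The CArG box was in 1.47%.
Pdgfra, chr5:75152001-75152250, plus strand: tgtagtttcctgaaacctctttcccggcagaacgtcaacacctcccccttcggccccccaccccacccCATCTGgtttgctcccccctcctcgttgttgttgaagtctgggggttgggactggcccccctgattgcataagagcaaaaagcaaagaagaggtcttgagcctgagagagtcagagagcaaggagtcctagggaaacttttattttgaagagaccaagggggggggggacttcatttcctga
It held 1 E-box, 182 bases before the start. A match is a description of the letters only.

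Of the ligand genes, Pdgfb was the most highly expressed and did not change detectably, while Pdgfa and Pdgfd fell in HF and Pdgfc was near the limit of the test. Mean levels in Control week 19 were 25.2 FPKM for Pdgfb, 7.05 FPKM for Pdgfa, 2.55 FPKM for Pdgfd and 0.424 FPKM for Pdgfc, and the values of these ligand genes did not overlap each other in the 5 controls. FPKM are per transcript length, but the annotation behind the lengths is not given, so levels of different genes can be compared only roughly.

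Pdgfd encodes a latent ligand of PDGFR-beta that is activated by proteolysis. It was at 2.51, 2.01, 2.73, 2.35 and 3.14 FPKM in Control week 19, at 0.716, 1.12 and 1.44 FPKM in HF week 5, and at 3.16, 3.29, 3.21, 3.96 and 1.83 FPKM in Recovery week 19. All HF values lay below all values of both other groups. Between HF week 5 and Recovery week 19, 26.7% of all genes showed no overlap. The level in HF was 0.518 of that in control on the scale of FPKM + 0.5 (log2 fold change -0.95, SE 0.22, adjusted p = 0.00444) and rose 2.24-fold to Recovery week 19 (log2 fold change 1.17, SE 0.22, adjusted p = 0.00107). Without HF week 5 library 1 these were -0.77 (adjusted p = 0.0483) and 0.98 (adjusted p = 0.0137). Its HF week 3 values were 1.03 and 1.13 FPKM, close to HF week 5. In Recovery weeks 7 to 13 it ranged from 1.20 to 2.57 FPKM, with both values of week 13, 1.20 and 1.73 FPKM, below all controls (log2 fold change -0.63, unadjusted p = 0.0202, adjusted p = 0.396). Recovery week 19 differed from control by a log2 fold change of 0.22 (95% interval -0.18 to 0.61).

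The promoter of Pdgfd is shown as that of the ligand gene with the clearest change.
Pdgfd, chr9:6168236-6168485, plus strand: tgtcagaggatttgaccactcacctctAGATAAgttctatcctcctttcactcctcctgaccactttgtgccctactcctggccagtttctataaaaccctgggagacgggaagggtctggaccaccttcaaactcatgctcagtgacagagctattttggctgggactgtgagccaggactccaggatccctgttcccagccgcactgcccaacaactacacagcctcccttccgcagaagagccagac
It held 1 GATA match, 223 bases before the start.

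Pdgfa encodes the ligand that acts mainly through PDGFR-alpha. It was at 7.99, 6.14, 7.44, 8.49 and 5.21 FPKM in Control week 19 and at 3.74, 5.65 and 3.82 FPKM in HF week 5, where library 2 lay within the control range. It fell by 0.63 on the log2 scale (SE 0.20, adjusted p = 0.0262). The call was lost without HF week 5 library 1 (log2 fold change -0.53, adjusted p = 0.139) or library 3 (adjusted p = 0.0991), and without Control week 19 library 1, 3 or 4 (adjusted p = 0.0589, 0.0546 and 0.0643). By Recovery week 19 it was at 8.46, 7.03, 7.49, 5.42 and 5.17 FPKM, which spans the control range. The rise from HF week 5 was 0.56 on the log2 scale (SE 0.20, adjusted p = 0.0440) and did not hold without HF week 5 library 1 (adjusted p = 0.190) or library 3 (adjusted p = 0.147), without Recovery week 19 library 1, 2 or 3 (adjusted p = 0.0935, 0.0804 and 0.0873), without the filter on low values (adjusted p = 0.0706) or with only the compared groups in the fit (adjusted p = 0.0736). The HF week 3 values of 3.43 and 3.28 FPKM were below all controls (log2 fold change -0.95, adjusted p = 0.00185).

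Pdgfb, the endothelial ligand of PDGFR-beta, was at 25.9, 27.3, 25.6, 25.9 and 21.3 FPKM in Control week 19. In HF week 5 it was at 10.9, 25.9 and 29.4 FPKM, so that library 1 alone was below control. The log2 fold change of -0.30 (95% interval -0.82 to 0.22, adjusted p = 0.404) turned to 0.13 without that library (adjusted p = 0.733). Over the Recovery week 19 libraries it ranged from 18.7 to 35.4 FPKM, with a median of 29.8 FPKM. Pdgfc, the other latent ligand, which acts through PDGFR-alpha, was at 0.279 to 0.666 FPKM in the controls, at 1.26, 0.674 and 0.516 FPKM in HF week 5 and at 0.347 to 0.662 FPKM in Recovery week 19. Its log2 fold change in HF week 5 was 0.49 (SE 0.26, adjusted p = 0.193), or 0.26 without library 1 (adjusted p = 0.625), and on the scale of FPKM + 0.5 a change at such a level is understated. The group means of Pdgfc were above the filter of 0.5 FPKM only in HF week 3, HF week 5 and Recovery week 13. It was therefore tested only through groups in which it was high, HF week 5 among them.

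Cspg4 and Abcc9 are both used to mark pericytes, and in HF week 5 they went in opposite directions. Cspg4 was at 3.78, 4.201, 5.34, 3.84 and 4.83 FPKM in Control week 19, at 4.87, 7.40 and 6.86 FPKM in HF week 5, and at 4.64, 3.50, 3.52, 3.19 and 3.36 FPKM in Recovery week 19. HF library 1 lay within the control range, and all HF values lay above all values of Recovery week 19. From control to HF week 5 Cspg4 rose 1.40-fold (0.48 on the log2 scale, SE 0.16, adjusted p = 0.0350) and fell by 0.72 on the log2 scale to Recovery week 19 (SE 0.16, adjusted p = 0.00344). Without HF week 5 library 1 these were 0.65 (adjusted p = 0.0200) and -0.89 (adjusted p = 0.00286). The fall to recovery passed under all 18 alternatives run (adjusted p from 0.0014 to 0.0495), whereas the rise in HF was lost without HF library 2 (adjusted p = 0.146) or library 3 (adjusted p = 0.119), without Control week 19 library 1, 2 or 4 (adjusted p = 0.0784, 0.0632 and 0.0774), after median centring (adjusted p = 0.0653) or quantile normalization (adjusted p = 0.0564), without the filter on low values (adjusted p = 0.0528) and with only the compared groups in the fit (adjusted p = 0.0581). Cspg4 in HF week 3 was at 12.5 and 10.7 FPKM, the highest values of any library (log2 fold change 1.31, adjusted p = 1.67e-05).

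Abcc9 was at 18.7, 17.9, 19.2, 19.1 and 14.0 FPKM in Control week 19, at 5.04, 12.4 and 14.6 FPKM in HF week 5, and at 23.6, 16.9, 19.9, 20.1 and 13.7 FPKM in Recovery week 19. HF library 3 lay above the lowest control. From control to HF week 5 Abcc9 fell by 0.83 on the log2 scale (SE 0.28, adjusted p = 0.0375) and rose 1.85-fold to Recovery week 19 (log2 fold change 0.89, SE 0.28, adjusted p = 0.0257). Without HF week 5 library 1 the log2 fold changes were -0.38 (adjusted p = 0.362) and 0.45 (adjusted p = 0.264), so both calls rested on that library. The call in HF was also lost without Control week 19 library 1, 2, 3 or 4 (adjusted p from 0.0621 to 0.0728), without the filter on low values (adjusted p = 0.0647) and with only the compared groups in the fit (adjusted p = 0.0698). That of recovery was lost without Recovery week 19 library 1 (adjusted p = 0.0538) and with only the compared groups (adjusted p = 0.0759). In HF week 3 Abcc9 was at 2.56 and 7.40 FPKM (log2 fold change -1.89, adjusted p = 0.000108), and in Recovery week 7 it was back at 21.6 and 20.2 FPKM, above all controls. SUR2 forms ATP-sensitive potassium channels with the pore subunits Kir6.1 (Kcnj8) and Kir6.2 (Kcnj11), both picked after their values were seen. Kcnj8, the partner in mural cells, was at 20.7 to 35.1 FPKM in the controls and at 14.5 to 35.9 FPKM in HF week 5 (log2 fold change 0.05, adjusted p = 0.910, and 0.40 with an adjusted p of 0.304 without HF week 5 library 1). Kcnj11, the partner in cardiomyocytes, was at 28.4 to 51.5 FPKM in the controls and at 17.0 to 30.4 FPKM in HF week 5 (log2 fold change -0.98, adjusted p = 0.00155, and -0.80 with an adjusted p of 0.0201 without HF week 5 library 1).

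The promoters of these 2 genes are set side by side because their levels moved apart in HF.
Cspg4, chr9:56864854-56865103, plus strand: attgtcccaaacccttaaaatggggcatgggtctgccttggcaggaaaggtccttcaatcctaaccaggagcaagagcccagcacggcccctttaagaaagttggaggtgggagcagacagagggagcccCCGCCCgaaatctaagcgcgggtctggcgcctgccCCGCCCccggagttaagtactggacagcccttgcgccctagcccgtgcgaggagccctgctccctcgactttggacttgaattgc
Abcc9, chr6:142702275-142702524, minus strand: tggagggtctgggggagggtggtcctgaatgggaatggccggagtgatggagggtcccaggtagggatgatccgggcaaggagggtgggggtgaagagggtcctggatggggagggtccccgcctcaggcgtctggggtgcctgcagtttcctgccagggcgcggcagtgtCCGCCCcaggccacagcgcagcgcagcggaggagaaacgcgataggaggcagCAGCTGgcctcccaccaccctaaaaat
Cspg4 held 2 GC boxes, at 120 and 85 bases before the start. Abcc9 held 1 GC box at 79 bases and 1 E-box at 27 bases.

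Rgs5 and Rgs4 encode GTPase activators that shorten G protein signals, and Rgs5 is among the strongest pericyte markers of the mouse. Rgs5 was at 21.3, 21.1, 23.8, 24.6 and 21.1 FPKM in Control week 19 and at 8.13, 14.7 and 22.4 FPKM in HF week 5, where library 3 lay inside the control range. The log2 fold change of -0.66 (SE 0.32, 95% interval -1.33 to 0.00) did not pass the test (adjusted p = 0.139), and it was -0.29 without HF library 1 and passed without library 3 (log2 fold change -0.999, adjusted p = 0.0455). In Recovery week 19 Rgs5 was at 41.6, 31.3, 30.7, 44.4 and 14.4 FPKM. In 4 of these 5 libraries it was above every control and every HF library, and in library 5 it was below every control. It rose 2.14-fold from HF week 5 (log2 fold change 1.097, SE 0.32, adjusted p = 0.0178), a call that was lost without HF week 5 library 1 (log2 fold change 0.73, adjusted p = 0.161) and with only the compared groups in the fit (adjusted p = 0.0849). Against Control week 19 the log2 fold change was 0.43 (95% interval -0.14 to 1.01, adjusted p = 1). In HF week 3 Rgs5 was at 7.98 and 18.3 FPKM, both below the controls (log2 fold change -0.86, unadjusted p = 0.0297, adjusted p = 0.0571). In Recovery weeks 7 to 13 it ranged from 15.6 to 25.4 FPKM.

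Rgs4 was at 4.61, 4.84, 4.35, 4.81 and 5.93 FPKM in Control week 19 and at 2.52, 6.93 and 10.1 FPKM in HF week 5. Library 1 was below and libraries 2 and 3 were above every control. With all 3 libraries the log2 fold change was 0.20 (SE 0.27, adjusted p = 0.626), without library 1 it was 0.72 (adjusted p = 0.0309), and without library 3 it was -0.18. Its values were 4.55 to 7.003 FPKM in Recovery week 19 and 8.19, 7.18 and 6.48 FPKM in Recovery week 11, where all 3 were above the controls (log2 fold change 0.53, unadjusted p = 0.0682, adjusted p = 0.631).

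Rgs5 and Rgs4 are neighbours on chromosome 1, with 0 RefSeq genes between them, and are read from opposite strands. Their promoters are shown because they are neighbouring genes with the same kind of product. Their HF week 5 log2 fold changes had opposite signs, but neither was called. Without HF week 5 library 3 both were negative (-0.999 for Rgs5 and -0.18 for Rgs4).
Rgs5, chr1:169655251-169655500, plus strand: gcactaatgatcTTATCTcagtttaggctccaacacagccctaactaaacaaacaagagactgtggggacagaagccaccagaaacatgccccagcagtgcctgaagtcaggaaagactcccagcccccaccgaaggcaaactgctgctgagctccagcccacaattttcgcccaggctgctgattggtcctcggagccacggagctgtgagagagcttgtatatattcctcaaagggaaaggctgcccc
Rgs4, chr1:169747643-169747892, minus strand: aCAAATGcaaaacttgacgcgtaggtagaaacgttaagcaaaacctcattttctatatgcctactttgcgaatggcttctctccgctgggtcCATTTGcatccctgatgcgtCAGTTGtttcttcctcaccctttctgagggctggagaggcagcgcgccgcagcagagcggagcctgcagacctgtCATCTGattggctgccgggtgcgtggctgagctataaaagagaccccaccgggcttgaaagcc
Rgs5 held 1 GATA match, 238 bases before the start, and Rgs4 held 4 E-boxes, at 249, 158, 138 and 63 bases. Of the 10 genes 8 had an entry in the promoter table, with 2 promoters for Pdgfa, while Pdgfb and Pdgfrb had none. Among the promoters not printed, that of Pdgfc had the only CArG box, CCTTATTTGG, 17 bases before the start, and those of Pdgfa held GC boxes. None of the 9 promoters held the AP-1 or FOXO letters, and none of the matches overlapped another.

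**Figure D2:**
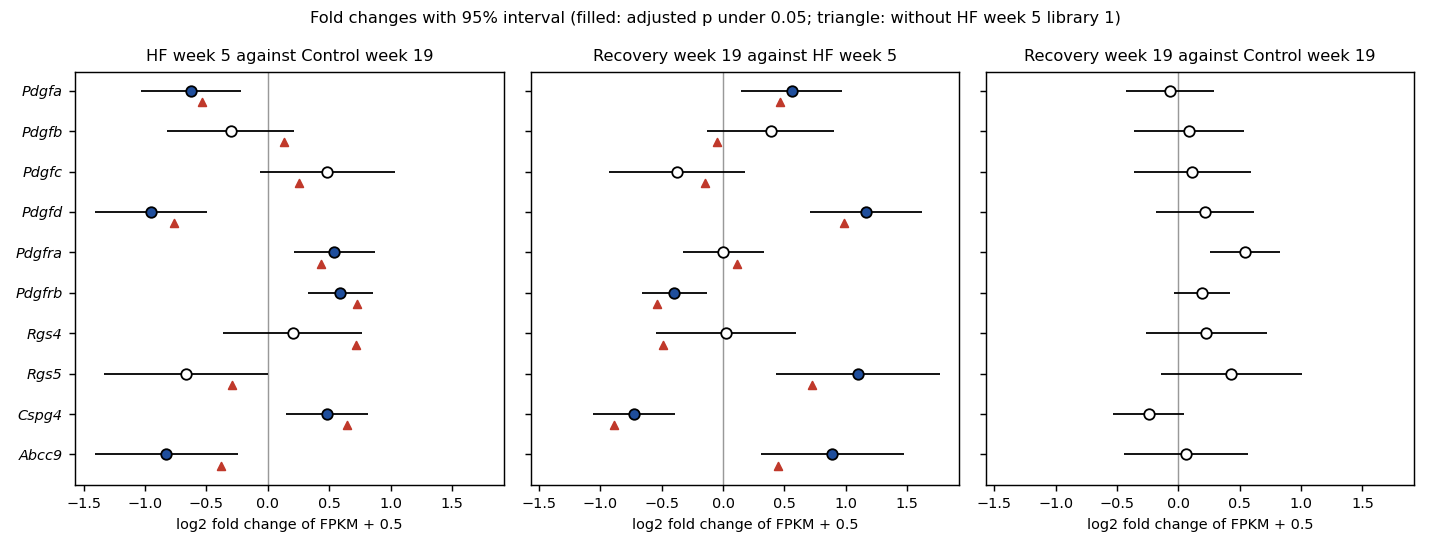
Log2 fold change of FPKM + 0.5 with its 95% interval (horizontal axis) for each of the 10 genes in 3 comparisons. Filled circles passed an adjusted p under 0.05, and red triangles give the value without HF week 5 library 1. In HF week 5 against Control week 19, 3 filled circles lie to each side, and in Recovery week 19 against Control week 19 none was filled while the interval of Pdgfra lay between 0.26 and 0.83.

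From HF week 5 to Recovery week 19, 6 of the 10 genes passed the adjusted threshold, with Pdgfa, Pdgfd, Rgs5 and Abcc9 higher and Pdgfrb and Cspg4 lower. Over all genes tested 24.2% passed, with 12.3% of all genes higher (1567 genes, beside 1525 lower, or 1808 and 1188 after median centring), and the median log2 fold change was 0.21 over the 10 genes and -0.04 over all genes. This comparison shares the HF week 5 libraries with the one against control, and its groups also lie 14 weeks apart in the protocol. Without HF week 5 library 1, 4 genes passed in HF week 5 against Control week 19 (Pdgfd lower and Pdgfrb, Cspg4 and Rgs4 higher), where 10.6% of all genes did, and 3 genes passed in Recovery week 19 against HF week 5 (Pdgfd higher and Pdgfrb and Cspg4 lower), where 12.1% did. Pdgfd, Pdgfrb and Cspg4 were thus called in both comparisons with and without this library. In Recovery week 19 against Control week 19 limma called 0 of the 10 genes, against 0.0235% of all genes, and 1 gene, Pdgfra, passed at an unadjusted p under 0.05.

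Ratios of 2 genes within a library do not depend on the scaling of that library, and are given as a description with no test. The 6 pairs were picked with the values of these genes known, the share of all pairs of genes that separate the groups in this way was not computed, and 29.5% of single genes showed no overlap between HF week 5 and Control week 19. Rgs5 over Pdgfrb was 1.88 to 2.42 in Control week 19, 0.446 and 0.793 in HF week 3, 0.641 to 1.18 in HF week 5, 1.17 to 1.87 over Recovery weeks 7 to 13, and 1.25 to 3.76 in Recovery week 19. No HF library reached the lowest control. Abcc9 over Cspg4 was 2.90 to 4.98 in Control week 19, 0.205 and 0.692 in HF week 3, 1.03 to 2.13 in HF week 5, and 4.08 to 6.30 in Recovery week 19, again with no HF value inside the control range. The ratio of the ligand gene Pdgfd to its receptor gene Pdgfrb was 0.206 to 0.279 in Control week 19, 0.0564 to 0.0760 in HF week 5 and 0.159 to 0.335 in Recovery week 19. All 3 HF libraries were below every library of the other groups but those of HF week 3, which were at 0.0490 and 0.0576. Pdgfb over Pdgfrb was 1.89 to 2.80 in the controls and 0.857 to 1.67 in HF week 5. Pdgfa over Pdgfra was 1.5 to 3.02 in the controls, 0.656 to 1.51 in HF week 5 and 0.966 to 1.91 in Recovery week 19, with overlaps between all 3 groups. HF week 5 libraries 2 and 3 also lay below the controls in the first 4 of these ratios.

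**Figure D3:**
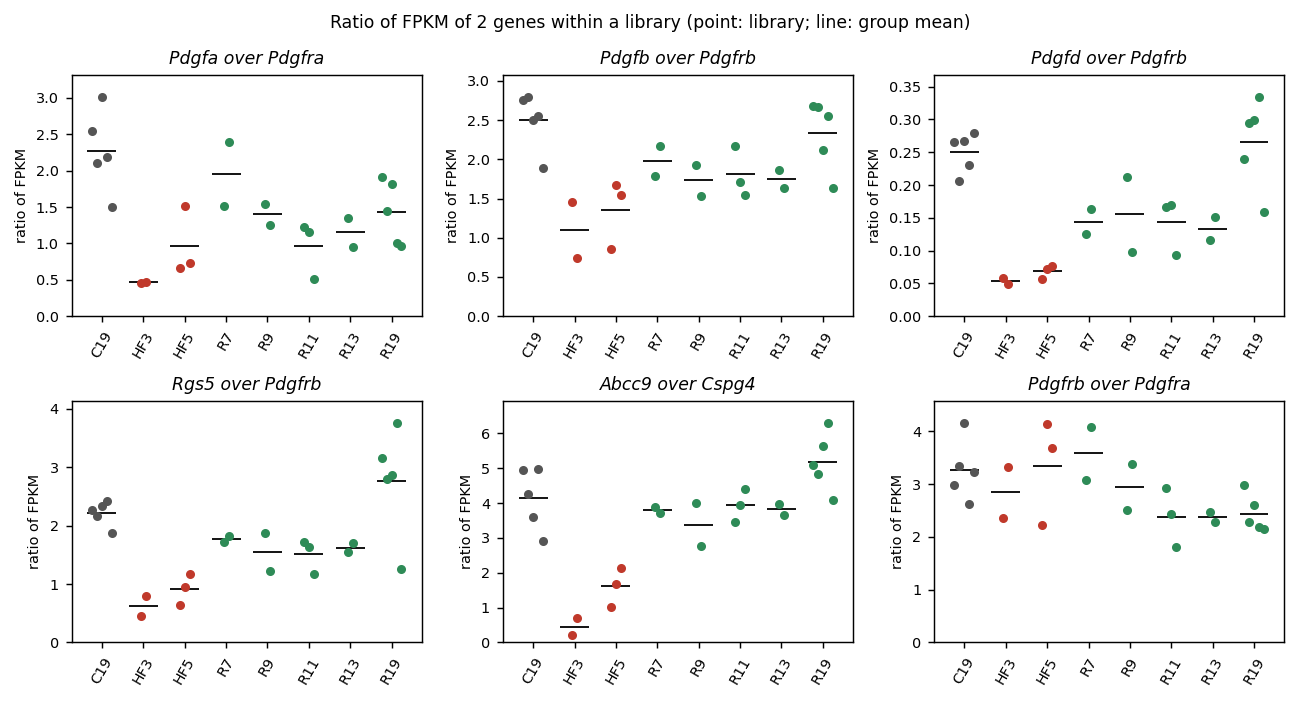
Ratio of the FPKM of 2 genes within each library (vertical axis, linear from 0) for 6 pairs, with points for libraries and lines for group means in the 8 groups. For Rgs5 over Pdgfrb, Abcc9 over Cspg4, Pdgfd over Pdgfrb and Pdgfb over Pdgfrb every library of HF weeks 3 and 5 lies below every Control week 19 library, while Pdgfrb over Pdgfra overlaps between these groups. The pairs were picked with the values known.

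The genes were set beside 21 other pericyte markers, of which all were tested. In HF week 5 against Control week 19, 3 of the 21 rose, 0 fell and 18 did not pass, beside 11.6% of all genes higher, with a median log2 fold change of 0.27 against 0.04 over all genes. The 3 were Foxs1, a forkhead transcription factor of mural cells, from a mean of 3.01 to 8.20 FPKM (log2 fold change 1.28, adjusted p = 0.0131), and both subunit genes of the nitric oxide receptor guanylate cyclase, Gucy1a3 (2.23 to 5.33 FPKM, log2 fold change 1.04, adjusted p = 0.00235) and Gucy1b3, named after its value was seen (log2 fold change 0.50, adjusted p = 0.0166). The values of these 3 without HF library 1 were 1.54, 0.76 and 0.55, and each kept its call. In that setting 4 of the 21 rose and 0 fell, beside 537 higher and 819 lower of all 12,759 genes. Without library 3 only 1 of the 21 passed. To Recovery week 19, 2 of the 21 fell and 0 rose, beside 1525 of all 12,759 genes lower: Foxs1 (log2 fold change -1.37, adjusted p = 0.00895) and Gucy1a3 (-0.84, adjusted p = 0.00905, a call that was lost without HF week 5 library 1 with an adjusted p of 0.0998). With that library left out 3 of the 21 fell and 0 rose, beside 673 lower and 875 higher of all 12,759 genes. Among them Foxs1 still fell (-1.62, adjusted p = 0.0137), and Cox4i2, named after its value was seen, was called lower too (-0.71, adjusted p = 0.0311). The summed level of the 21 markers was 1112 to 1416 FPKM in the controls and 1007, 1529 and 1279 FPKM in HF week 5 libraries 1, 2 and 3, which overlaps the controls. L-NAME, given until week 5, blocks the synthesis of nitric oxide, the ligand of the cyclase, and its part in these values was not tested.

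**Figure D4:**
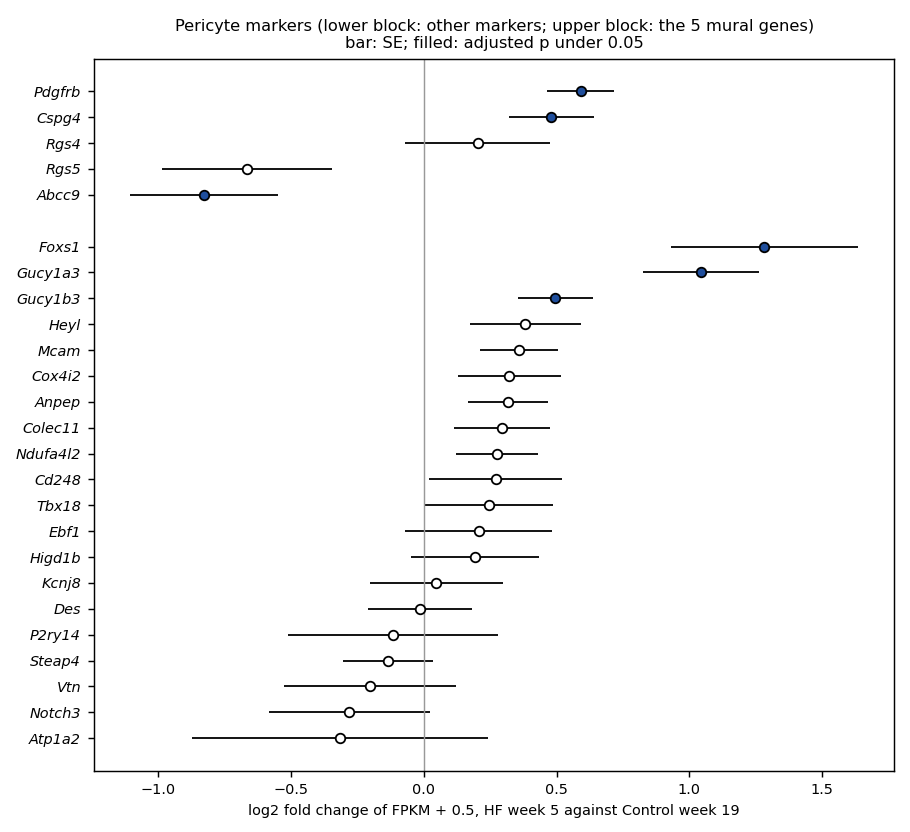
Log2 fold change of FPKM + 0.5 in HF week 5 against Control week 19 (horizontal axis) with its SE for Pdgfrb, Cspg4, Rgs4, Rgs5 and Abcc9 (upper block) and 20 of the 21 other pericyte markers (lower block). Filled circles passed an adjusted p under 0.05. In the upper block, 2 genes lie to the right and 1 to the left among those filled, and in the lower block the 3 filled genes, Foxs1, Gucy1a3 and Gucy1b3, all lie to the right.

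Markers of cells that share expression of these genes moved in HF as well. Of 7 smooth muscle markers 3 rose, among them the calponin gene Cnn1 (log2 fold change 1.44, adjusted p = 0.0127) and the smooth muscle actin gene Acta2 (0.96, adjusted p = 0.00481), and their sum was 166 to 202 FPKM in the controls and 218 to 309 FPKM in HF week 5. Of 12 fibroblast markers 8 rose, and their sum was 1751 to 4275 FPKM in HF week 5, above all controls, with the highest value in library 1. Of 10 endothelial markers 6 rose, with a sum of 368 to 471 FPKM in the controls and 515 to 749 FPKM in HF week 5. In these 3 lists 0 genes fell, and of all genes tested 11.6% were higher. With HF week 5 library 1 left out, 1 of the 7 smooth muscle, 3 of the 12 fibroblast and 4 of the 10 endothelial markers rose, beside 537 of all 12,759 genes. The smooth muscle marker was Acta2 (adjusted p = 0.0116), while Cnn1 had a log2 fold change of 1.02 (adjusted p = 0.127). Of 9 macrophage markers and 4 Schwann and neural markers 0 were called by limma (1 and 0 at an unadjusted p under 0.05), and of 10 cardiomyocyte markers, among them Myh6 at 0 in both groups, 1 fell, Pln, a call that was lost without library 1, while the rise of Actc1 rests on controls listed at 0. The part of these cells in the levels of the PDGF and mural genes was not tested.

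Downstream of the receptors, the calls in HF week 5 were all lower, while in HF week 3 there were 5 higher and 12 lower of the 36 genes tested, beside 23.1% and 27.6% of all genes. Of 36 adaptor, kinase and phosphatase genes tested, 0 rose and 10 fell in HF week 5 against Control week 19, beside 12.4% of all genes lower, and the median log2 fold change was -0.08 against 0.04 for all genes. The largest falls were those of Pik3r1, the regulatory subunit of PI3-kinase that binds the activated receptors (14.5 to 6.13 FPKM, log2 fold change -1.16, adjusted p = 0.000626), and of the adaptor Crkl (2.78 to 1.06 FPKM, log2 fold change -1.04, adjusted p = 0.0029). Without HF library 1 these were -1.13 and -1.004, and 8 genes fell and 0 rose, beside 819 lower and 537 higher of all 12,759 genes. From HF week 5 to Recovery week 19, 9 of the 36 rose and 3 fell, beside 12.3% of all genes higher. With HF week 5 library 1 left out, 7 rose and 1 fell, beside 875 higher and 673 lower of all 12,759 genes. There was also 1 fall alone without library 2, without library 3 or with only the compared groups in the fit, where the share of all genes is not given here. Crkl (log2 fold change 1.23, adjusted p = 0.000846) and Pik3r1 (1.08, adjusted p = 0.00103) rose most among those called, while Yes1, a SRC family kinase (-0.60, adjusted p = 0.0254), and the phosphatase gene Ptpn2 (-0.53, adjusted p = 0.0209) fell most among the genes called, and without HF week 5 library 1 their adjusted p were 0.105 and 0.0567, while Crkl and Pik3r1 kept their calls (adjusted p = 0.00699 and 0.00809). The immediate-early genes that growth factors induce, 15 in number, had 0 calls by limma in HF week 5, beside 24.0% of all genes. At an unadjusted p under 0.05, 1 was higher and 2 were lower, beside 36.5% of all genes. To Recovery week 19 only Spry1, a feedback inhibitor of receptor kinases, was called. It rose (log2 fold change 0.87, adjusted p = 0.0467), beside 12.3% of all genes higher. That call was lost when any 1 of the HF week 5 libraries was left out (0.75 and adjusted p = 0.181 without library 1) and without the filter on low values.

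Among 7 genes for ligand processing, co-receptors and binding proteins, 4 rose and 1 fell in HF week 5, beside 11.6% and 12.4% of all genes. Pdgfrl, a receptor-like gene without a kinase, went from a mean of 0.809 to 4.14 FPKM (log2 fold change 1.73, adjusted p = 0.00123), and the co-receptor gene Lrp1 from 8.13 to 12.9 FPKM (0.60, adjusted p = 0.00782). Furin, a protease that cleaves PDGF precursors, fell by 0.65 on the log2 scale (adjusted p = 0.0125). Without HF library 1, 1 gene rose (Pdgfrl, log2 fold change 1.37, adjusted p = 0.0178) and 1 fell (Furin, -0.71, adjusted p = 0.0324), beside 537 higher and 819 lower of all 12,759 genes. To Recovery week 19 1 of the 7 rose, Furin (0.71, adjusted p = 0.00732), and 3 fell, among them Pdgfrl (-1.09, adjusted p = 0.0219) and Nrp1 (-0.80, adjusted p = 0.00342), beside 12.3% of all genes higher and 1525 genes lower. With HF week 5 library 1 left out 2 fell, beside 673 of all 12,759 genes. The call of Pdgfrl was lost (adjusted p = 0.184), and those of Furin and Nrp1 were kept (adjusted p = 0.0204 and 0.0125). Of 7 other RGS genes tested, 2 rose in HF week 5, beside 11.6% of all genes: Rgs3, from 19.5 to 37.9 FPKM (log2 fold change 0.96, adjusted p = 0.00266), and Rgs12 (0.46, adjusted p = 0.0333). Both fell to Recovery week 19, by 0.94 and 0.70 on the log2 scale (adjusted p = 0.00317 and 0.00289). Rgs3 kept its call in HF without library 1 (0.84, adjusted p = 0.0277), while Rgs12 did not (0.21, adjusted p = 0.332), and Rgs2, named after its value was seen, was then called lower in HF week 5 (-0.75, adjusted p = 0.0273, against -0.34 and 0.324 with all libraries). To Recovery week 19, with that library left out, Rgs3 and Rgs12 still fell (-0.82 and -0.45, adjusted p = 0.0292 and 0.0318) and Rgs2 rose (0.67, adjusted p = 0.0412).

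Ordered by mean level in Control week 19, the genes ran Pdgfb (25.2 FPKM), Rgs5 (22.4), Abcc9 (17.8), Pdgfrb (10.2), Pdgfa (7.05), Rgs4 (4.91), Cspg4 (4.40), Pdgfra (3.18), Pdgfd (2.55) and Pdgfc (0.424). Neighbours in this order overlapped for Pdgfb and Rgs5, and for each step from Pdgfa through Rgs4, Cspg4 and Pdgfra to Pdgfd. As the ratio of the highest to the lowest of the 24 libraries, the span was widest for Pdgfc (16.2, from 0.0776 to 1.26 FPKM) and Abcc9 (9.22, from 2.56 to 23.6 FPKM), and narrowest for Pdgfrb (2.45, from 9.41 to 23.0 FPKM) and Pdgfa (2.59, from 3.28 to 8.49 FPKM).

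The tested genes whose 8 group means followed each gene most closely were found by Pearson's r, among the 6,761 or 6,762 genes that averaged 5 FPKM or more. With only 8 points, 1 of which is the HF week 3 group that stands apart, these are descriptions. Pdgfra was most like Timp2 (r = 0.965), an inhibitor of metalloproteinases, and Axl (0.962), a receptor tyrosine kinase. Pdgfrb was most like Trmt1 (0.968) and the integrin gene Itgb5 (0.964). Cspg4 was closest to Stoml1 (0.999), Abcc9 to 1300010F03Rik and Acsf2 (both 0.999) and Me3 (0.998), a mitochondrial malic enzyme, Pdgfa to Mfn1 (0.996), a gene of mitochondrial fusion, and Pdgfd to Dpp9 (0.984). Rgs5 was closest to Kctd20 (0.977) and Pdgfb to Epas1 (0.964), which encodes a hypoxia-inducible factor, whereas Rgs4 had no gene above 0.869 (Klhl22) and Pdgfc none above 0.928 (Phf10).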

How the data were processed

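Poly(A) RNA of mouse heart tissue was sequenced from paired ends. The authors aligned the reads with TopHat to MGSCv37 (mm9) and computed FPKM with Cuffdiff, and the deposited table holds FPKM for 29,955 gene symbols. The annotation, strand setting and scaling are not given in the sources used here. Columns were matched to groups by name. The 5 columns named for Control week 5, which has 4 labelled samples, were not used, and Recovery week 9 has 2 columns for 3 labelled samples. Nothing in the labels ties a library to a cohort, so p-values measure the spread between these 24 libraries.

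The 12,759 genes averaging 0.5 FPKM or more were fitted as log2(FPKM + 0.5) with limma 3.58.1 in R 4.3.3 (eBayes with trend, 1 mean for each of 8 groups, 16 residual degrees of freedom, two-sided). Fold changes are on this scale, which understates changes of low genes. Calls required a Benjamini-Hochberg adjusted p under 0.05 over all genes tested, and the unadjusted p is the threshold of the study's methods. The genes, the marker lists and the alternatives were chosen with earlier results of these data known. Beyond the 10 genes, up to 2 rising and 2 falling called genes of each list, and the 3 genes with the most similar group means, could be named. Relative depth came from the steps between low values, where 222 of 225 pairs of libraries lay within 0.05 (log2) of the estimates. Promoters came from RefSeq GRCm38.p6. Alternatives were other pseudocounts, no filter, only the compared groups, median centring, quantile normalization and leaving out libraries. The comparison of protein sequences was not run. One marker of the pericyte list is counted but not reported here by itself. The calculations were tested on simulated data. Figures were drawn with Python 3.11.15 and matplotlib 3.10.9.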

Additional observations from a re-analysis of the deposited data

Results flagged for a closer look

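In 20 groups of 5 libraries, that is the 10 genes in Control week 19 and Recovery week 19, 3 had a library far from the others by Dixon's criterion, where chance gives about 1 group in 20. Pdgfb was lowest in Control week 19 library 5, at 21.3 FPKM, with a gap to the nearest library of 0.718 of the range of the group. Abcc9 was lowest in the same library, at 14.0 FPKM, with a gap of 0.752 of the range. Cspg4 was highest in Recovery week 19 library 1, at 4.64 FPKM, with a gap of 0.772 of the range. Recovery week 19 library 5, which had the lowest Rgs5 of its group, was not far enough from the others to meet this criterion.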

How the results depend on the processing

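Over 48 results on single genes, 698 of 798 alternative values kept their direction and their side of the threshold, 63 kept the direction and lost the call, 11 gained one and 26 changed sign. All 26 were in genes without a call in the comparison concerned. HF week 5 was also reduced to library 3, a setting added after seeing the data in which this library is assumed to vary like those of the other groups. With 1 library in the group, only log2 fold changes are given. There Pdgfb was 0.22 and Rgs5 0.0042 in HF week 5 against Control week 19. In Recovery week 19 against HF week 5, Pdgfb was -0.14, Pdgfra -0.093 and Rgs4 -0.75. The cause was not tested, and Pdgfd kept its direction in both comparisons (-0.64 and 0.85). Without HF week 5 library 1 and both HF week 3 libraries, also added later, Pdgfb was 0.13 and -0.0456 and Rgs4 to recovery -0.49 (adjusted p = 0.0469).

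Counts of called genes moved by over 1.5 times in these settings. Only the compared groups in the fit gave 2 in Recovery week 19 against HF week 5, and no filter gave 0 in Recovery week 11. An unadjusted p under 0.05 gave 1, 1, 1, 2 and 2 in Recovery weeks 19, 7, 9, 11 and 13 against control, beside 2.88%, 3.61%, 3.60%, 8.45% and 10.4% of all genes. Leaving out single libraries gave 3 to 6 called genes in HF week 5 against control, 0 to 1 in week 11 of recovery, and from HF week 5 to Recovery week 19 again 3 to 6. The lowest count in HF week 5 came without Control week 19 library 1 or 4, that to recovery without HF week 5 library 1, and the 0 of week 11 without Control week 19 library 1, 2 or 3 or week 11 library 2 or 3. Without HF week 5 library 1 the share of all genes called fell too, from 24.0% to 10.6% in HF week 5 and from 24.2% to 12.1% to recovery. For the other adjusted counts this share is not given here, so they do not tell a loss in these genes from a loss over all genes.

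Signs changed on leaving out single libraries in these ranges of the log2 fold change. In HF week 5 they were -0.56 to 0.13 for Pdgfb and -0.18 to 0.72 for Rgs4. In Recovery week 19 against HF week 5 they were -0.0456 to 0.65 for Pdgfb, -0.16 to 0.12 for Pdgfra and -0.49 to 0.41 for Rgs4. In Recovery week 19 against control they were -0.16 to 0.0129 for Pdgfa, -0.0125 to 0.21 for Pdgfb and -0.0206 to 0.17 for Abcc9. In HF week 3 they were -0.55 to 0.0584 for Pdgfb, -0.66 to 0.91 for Pdgfc and -0.31 to 0.49 for Rgs4, and a pseudocount of 0.1 gave -0.0667 for Pdgfc.

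Over all genes, median centring moved the HF week 5 calls from 1482 higher and 1580 lower to 1116 and 1869, and those to recovery from 1567 and 1525 to 1808 and 1188. Quantile normalization gave 1430 and 1961, and 1956 and 1559. No paired analysis was possible because the columns carry no labelled replicate letter. Absolute depth is unknown, so counting error is not included, and Pdgfc sits at the filter.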
